A study of Mus musculus with 6 samples.

Results

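This account covers 5 genes with which pancreatic beta cells sense glucose and turn it into an electrical signal: Slc2a2, G6pc2, Abcc8, Kcnj11 and Trpm5. They were chosen by name, and all 5 were found among the 21813 gene symbols of the table. Islets came from adult males aged 3 months, 3 of them Ucn3 null and 3 wild-type littermates, and each animal gave 1 library. Ucn3 encodes urocortin 3, a peptide that beta cells release together with insulin, and it is the deleted gene. How the deletion was made and the strain are not given in the sources used here. The labels call the islets mixed in cell type, while the extraction protocol mentions sorting by flow cytometry. The labels give no batch and no pairing of animals. Replicate numbers used here count the libraries within each genotype and link no animals across genotypes.

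In a beta cell, glucose enters through a facilitative transporter, and its metabolism raises the ratio of ATP to ADP. ATP closes the ATP-sensitive potassium (KATP) channel, the membrane depolarizes, calcium enters and insulin granules fuse. Slc2a2 encodes GLUT2, the low-affinity glucose transporter of mouse beta cells. G6pc2 encodes the islet glucose-6-phosphatase catalytic subunit, which returns glucose-6-phosphate to glucose and so slows glycolysis. Kcnj11 encodes Kir6.2, the pore of the KATP channel, and Abcc8 encodes SUR1, its regulatory subunit and the target of sulfonylurea drugs. Trpm5 encodes a cation channel opened by intracellular calcium that adds to depolarization and is also a channel of taste cells. KATP channels are found in alpha and delta cells of the islet as well.

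Slc2a2 lies on mouse chromosome 3, G6pc2 on chromosome 2, and Abcc8, Kcnj11 and Trpm5 on chromosome 7, where Abcc8 and Kcnj11 are neighbours on the same strand. The promoters of Slc2a2 and G6pc2 are shown because these genes were above and below their own means in the same libraries, as described below. That relation did not pass after adjustment, and shared control of the 2 genes was not tested. Each sequence holds 250 bases before and 50 bases from the start site, 5′ to 3′, from RefSeq on build GRCm38.p6, and capitals mark matches to the E-box CANNTG or the CCAAT box. The window is chr3:28697653-28697952 on the plus strand for Slc2a2 and chr2:69210823-69211122 on the plus strand for G6pc2.
Slc2a2: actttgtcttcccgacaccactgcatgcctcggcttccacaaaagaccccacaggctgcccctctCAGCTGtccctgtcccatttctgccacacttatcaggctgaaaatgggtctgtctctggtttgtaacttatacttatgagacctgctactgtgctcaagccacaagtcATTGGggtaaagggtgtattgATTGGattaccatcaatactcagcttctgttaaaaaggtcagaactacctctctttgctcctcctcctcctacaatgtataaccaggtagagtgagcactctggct
G6pc2: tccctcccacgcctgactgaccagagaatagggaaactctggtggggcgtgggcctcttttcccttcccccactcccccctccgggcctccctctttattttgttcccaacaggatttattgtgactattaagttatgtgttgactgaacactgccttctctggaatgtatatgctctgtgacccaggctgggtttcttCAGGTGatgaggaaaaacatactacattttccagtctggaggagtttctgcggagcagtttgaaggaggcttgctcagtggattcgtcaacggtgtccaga

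Both strands of these windows were searched for 8 motifs. The Slc2a2 window held 1 E-box, whose first base lies at -185 from the start site, and 2 CCAAT boxes on the minus strand with first bases at -77 and -56. The G6pc2 window held 1 E-box at -51. An E-box is present in 72.3% and a CCAAT box in 37.4% of the 32851 promoter windows of the same length, so these matches are common. The other motifs searched were TATAAA (13.6% of windows), TAATTA of homeodomain type (5.29%), CATCTG of NeuroD type (17.2%, and itself an E-box), TGCTGA of MAF type (19.5%), TGTTTA of FOX type (13.4%) and TGACGTCA of CREB type (1.79%). None of these letter strings is in either window. The Trpm5 window held none of the 8.

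Values are RPKM, the density of reads on a transcript scaled for its length and for library depth, so levels of different genes can be set side by side. Depths estimated from the steps between low values ran from 42620000 to 51930000 reads. Ucn3 itself ranged over 136 to 157 RPKM in controls and over 1.61 to 1.80 RPKM in null libraries, so all 6 libraries matched their labels. In limma 2 of 12652 genes (0.0158%) were called at an adjusted p of 0.05, Ucn3 and Marcksl1-ps4, both lower in null islets. Markers of acinar cells, the enzyme-secreting cells around islets, differed widely between libraries: the summed level of 25 markers ran from 646 to 7669 RPKM in wild-type and from 5719 to 28224 RPKM in null libraries. Delta cell markers summed to 1807 to 2469 RPKM in wild-type and 744 to 1147 RPKM in null libraries. Of 6 delta cell markers tested in limma, 5 were lower and 1 was higher in null islets. Of these, 4 lower and 1 higher had an unadjusted limma p under 0.05, and none passed after adjustment. The part of the delta cell list in the results below was not tested. The acinar list enters there as a covariate, as a change of scaling and, for Abcc8, as a correlation.

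None of the 5 genes passed the test between null and wild-type islets (limma, adjusted p from 0.55 to 0.95 over all genes tested), and 0 of the 5 had an unadjusted p under 0.05, beside 9.36% of all genes. Abcc8 came nearest, at a null to wild-type ratio of 1.15, and the other 4 genes had ratios from 0.948 to 0.975. The median log2 difference of the 5 genes was -0.045, beside -0.034 over all genes tested, with 1 gene positive and 4 negative where 38.3% of all genes were positive. These 4 signs depend on the scaling: with equal totals after leaving out the acinar list, all 5 were positive, from 0.002 for G6pc2 to 0.283 for Abcc8, and the median of all genes was 0.031. In bulk islets, fewer beta cells and less RNA per beta cell cannot be told apart.

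**Figure D1:**
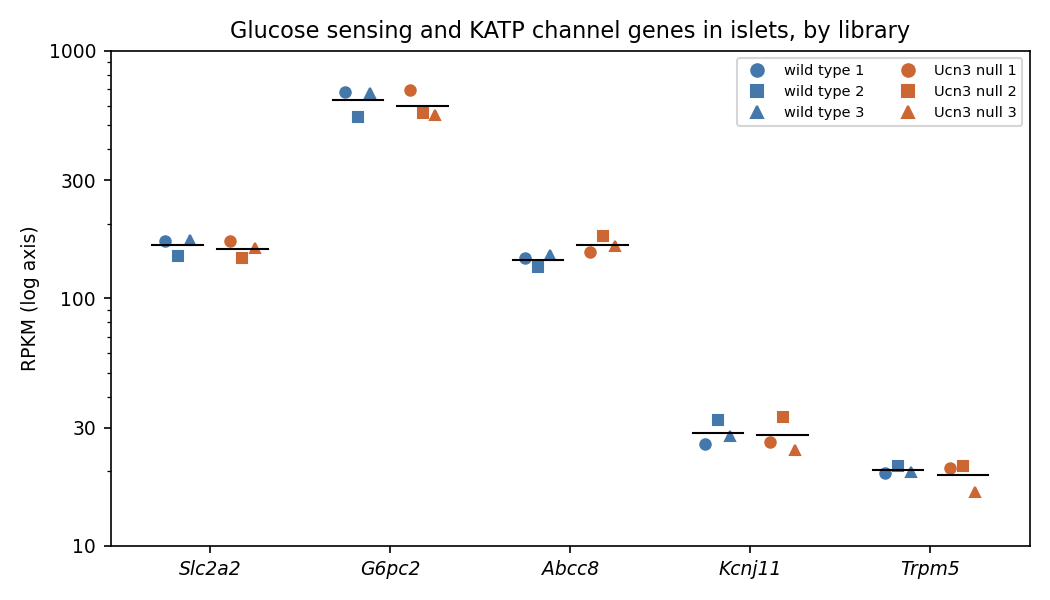
RPKM on a log axis for the 5 genes in each of 6 libraries (blue wild type, orange Ucn3 null; the marker shape gives the replicate number), with a black line at the group mean. G6pc2 lies highest at 541 to 694 RPKM, Slc2a2 and Abcc8 share the range from 133 to 178 RPKM, and Kcnj11 and Trpm5 lie lowest.

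The order of levels was G6pc2, Slc2a2, Abcc8, Kcnj11 and Trpm5, with means over 6 libraries of 617, 161, 154, 28.2 and 19.8 RPKM. G6pc2 exceeded 99.8% of the tested genes by level, Slc2a2 99.1%, Abcc8 99.0%, Kcnj11 90.1% and Trpm5 84.6%. G6pc2 was 3.45 to 4.06 times the level of Slc2a2 within a library. Slc2a2 and Abcc8 did not differ beyond their spread: Slc2a2 was higher in all 3 wild-type libraries, by 1.11 to 1.17 times, and in the null libraries the ratio was 1.12, 0.82 and 0.98. On its row with the higher mean, Kcnj11 was 1.28 to 1.57 times Trpm5 within a library, with no overlap of the 2 genes over the 6 libraries. On its other row Kcnj11 was also above Trpm5 within each library, but the 2 genes overlapped across libraries. That row held 19.8 RPKM in null replicate 3, below the 21.0 RPKM of Trpm5 in null replicate 2.

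Slc2a2 held 171, 148 and 172 RPKM in wild type replicates 1 to 3 and 171, 145 and 159 RPKM in Ucn3 null replicates 1 to 3. The groups overlapped almost completely, with replicate 2 the lowest library of each. The means were 164 ± 13.6 and 158 ± 12.8 RPKM (SD, n = 3 each), a log2 difference of -0.05 (SE 0.10, limma adjusted p = 0.93). The 95% interval of that difference reached from a fold of 0.82 to 1.145 on the RPKM + 1 scale.

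G6pc2 held 683, 541 and 677 RPKM in wild type and 694, 560 and 549 RPKM in null libraries. The values formed 2 sets of 3 that cut across the genotypes: wild type replicates 1 and 3 with null replicate 1 above, and wild type replicate 2 with null replicates 2 and 3 below. The means were 634 ± 80.2 and 601 ± 80.7 RPKM (SD, n = 3 each), a log2 difference of -0.08 (SE 0.15, limma adjusted p = 0.91; interval 0.74 to 1.21 in fold). With the mean of the acinar markers as a covariate the limma difference was -0.363 (SE 0.133, unadjusted p = 0.0305, adjusted p = 0.98). That covariate averaged 5.30 in wild-type and 7.48 in null libraries on the log2(RPKM + 1) scale. It is thus partly confounded with genotype, and 6 libraries separate the 2 poorly.

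Abcc8 held 146, 133 and 150 RPKM in wild type and 153, 178 and 163 RPKM in null libraries. Every null library lay above every wild-type library, with a gap of less than 4 RPKM between wild type replicate 3 and null replicate 1. Groups with null above wild type occurred for 1.9% of all genes tested, and for 1 of these 5. Groups with null below occurred for 13.2% of all genes and for 0 of these 5. These shares were not computed under the other scalings. The means were 143 ± 8.58 and 165 ± 12.6 RPKM (SD, n = 3 each), a log2 difference of 0.20 (SE 0.09, unadjusted p = 0.065, limma adjusted p = 0.55; interval 0.99 to 1.34 in fold). The difference was positive in each of 14 other settings, from 0.147 to 0.283, with adjusted p from 0.44 to 0.98. Without a mean trend in limma its interval left out 0 (0.006 to 0.402, adjusted p = 0.53). The unadjusted limma p was 0.0233 with median-ratio scaling (adjusted p = 0.55) and 0.0154 with equal totals without the acinar list (adjusted p = 0.71). Its lowest value came without null replicate 2, which held the highest level. Abcc8 and the acinar marker mean had a Pearson r of 0.70 over the 6 libraries (exact permutation p = 0.12, adjusted p = 0.44) and a Spearman rho of 0.60 (exact permutation p = 0.24, adjusted p = 0.91). Without the 2 libraries farthest from the median of Abcc8 that r was 0.07 over 4 libraries. Fitted beside the acinar mean, which is partly confounded with genotype, the Abcc8 difference was 0.151 (SE 0.122, limma adjusted p = 0.98).

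Kcnj11 held 25.8, 32.3 and 27.7 RPKM in wild type and 26.3, 33.0 and 24.3 RPKM in null libraries, on the transcript row with the higher mean. Replicate 2 was the highest library of each genotype and the groups overlapped. The means were 28.6 ± 3.34 and 27.9 ± 4.51 RPKM (SD, n = 3 each), a log2 difference of -0.04 (SE 0.13, limma adjusted p = 0.95; interval 0.789 to 1.197 in fold). The table has a further row for Kcnj11, at a mean of 23.4 RPKM, and the kept row was 1.2 to 1.23 times that row in the 6 libraries, so both rows gave the same order of libraries.

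Trpm5 held 19.6, 21.0 and 19.8 RPKM in wild type and 20.6, 21.0 and 16.5 RPKM in null libraries. It varied least in wild type, at 3.6% of its mean, and 12.8% in null islets, where replicate 3 lay below the other 5 libraries. The means were 20.1 ± 0.72 and 19.4 ± 2.48 RPKM (SD, n = 3 each), a log2 difference of -0.06 (SE 0.10, limma adjusted p = 0.90; interval 0.82 to 1.13 in fold). Without null replicate 3 the difference was 0.045 (SE 0.071, limma adjusted p = 0.86).

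**Figure D2:**
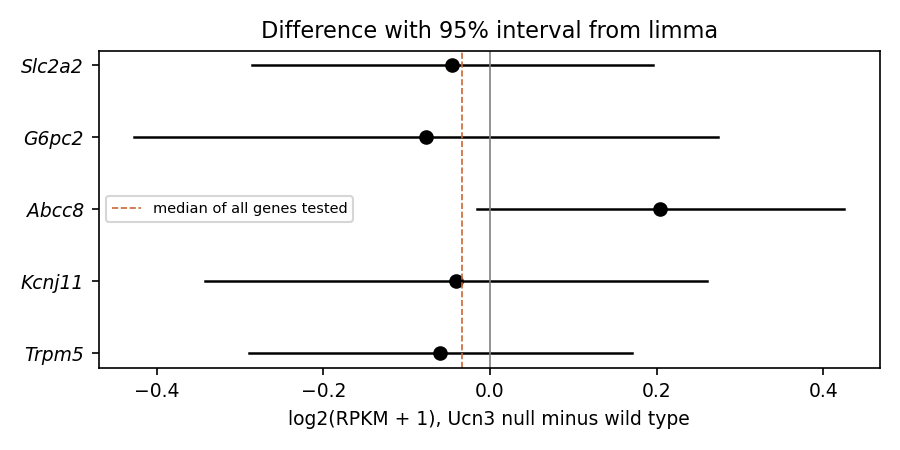
Log2(RPKM + 1) of Ucn3 null minus wild-type islets for each gene (point) with its 95% limma interval (line), a grey line at 0 and a dashed line at the median of all genes tested, -0.034. All 5 intervals include 0, and that of Abcc8 reaches from -0.02 to 0.42; without the mean trend in limma it reaches from 0.006 to 0.402.

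About 48256 to 68154 reads per library fell on G6pc2, 30257 to 41723 on Abcc8 and 3170 to 4406 on Trpm5, estimated from RPKM, depth and transcript length. Counting error at the lowest of these is 1.78% for Trpm5 and under 1% for G6pc2 and Abcc8, and it covers the counting of reads alone. For Slc2a2 and Kcnj11 the transcript length behind the table is uncertain and no reads are given. No stretch of 50 bases in the annotated transcripts of the 5 genes recurs in a GENCODE M21 transcript of another gene. Exons annotated for Trpm5 overlap those of Tssc4 on the opposite strand, but the transcript used here has 0 of its 4123 bases under a Tssc4 exon.

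**Figure D3:**
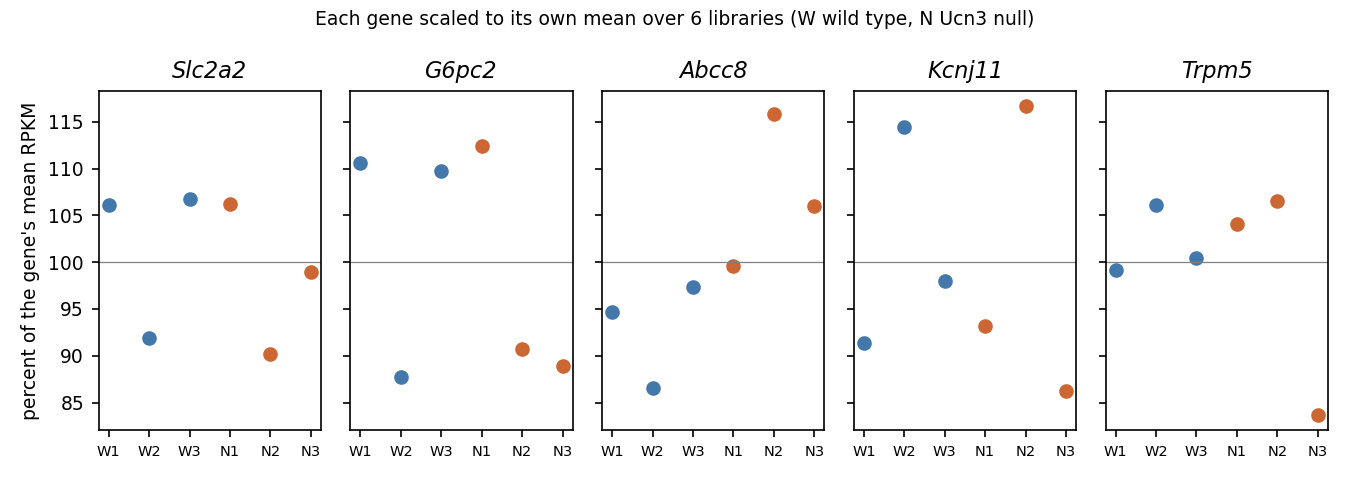
Each gene's RPKM in the 6 libraries as a percent of its own mean (blue wild type W1 to W3, orange Ucn3 null N1 to N3). Slc2a2 and G6pc2 are both at or above 106.1% in W1, W3 and N1, Kcnj11 is above 114% in W2 and N2, and Abcc8 is at or below 99.6% in the 3 wild-type libraries and N1.

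The 5 genes differed in which libraries were high. Slc2a2 and G6pc2 were at or above 106.1% of their own means in the same 3 libraries, wild type replicates 1 and 3 and null replicate 1, and at or below 98.9% in the other 3. Kcnj11 stood at 114.4% and 116.7% of its mean in wild type replicate 2 and null replicate 2, where Slc2a2 stood at 91.9% and 90.2%. Since G6pc2 falls into 2 separate sets of libraries, no pooled correlation with Slc2a2 is given, and that pair is among the 15 named last, none of which passed. For Abcc8 and Kcnj11, the subunits of the KATP channel, Pearson r over the 6 libraries was 0.00 (exact permutation p = 0.99) and Spearman rho was 0.03 (exact permutation p = 1). Without the 2 libraries farthest from the median of Abcc8 the Pearson r was -0.68 over 4 libraries. For Kcnj11 and Trpm5 Pearson r was 0.74 (exact permutation p = 0.043, adjusted p = 0.44) and Spearman rho was 0.94 (exact permutation p = 0.017, adjusted p = 0.25). Without the 2 libraries farthest from the median of Kcnj11 that r was 0.81 over 4 libraries. Of the 15 relations computed among the 5 genes and the acinar mean, none passed after Benjamini-Hochberg adjustment, and genotypes of 3 animals are too few for values within a group. Values of 1 library share its depth and scaling.

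A ratio of RPKM within a library does not depend on its scaling. The tests used differences of log2(RPKM + 1), which depend on it slightly, and with 3 against 3 libraries the smallest exact two-sided p is 0.1, so no ratio could reach 0.05. The Abcc8 to Kcnj11 ratio of RPKM was 5.64, 4.12 and 5.40 in wild type and 5.81, 5.40 and 6.69 in null libraries. The RPKM of the regulatory subunit thus exceeded that of the pore in all 6. Because the transcript length behind the Kcnj11 values is uncertain, the ratio may differ from that of transcript numbers. The functional channel holds both subunits in equal number, which RNA levels do not measure. The groups overlapped, at 5.05 ± 0.82 and 5.97 ± 0.66 (SD, n = 3 each; exact two-sided permutation p = 0.2 on log2 ratios, adjusted p = 0.27 over 8 ratios).

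The Slc2a2 to Slc2a1 ratio, at 51.4 ± 8.84 and 56.3 ± 3.69 (SD, n = 3 each), overlapped as well (exact permutation p = 0.6, adjusted p = 0.6; with a pseudocount of 0.1 RPKM, p = 0.4).

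**Figure D4:**
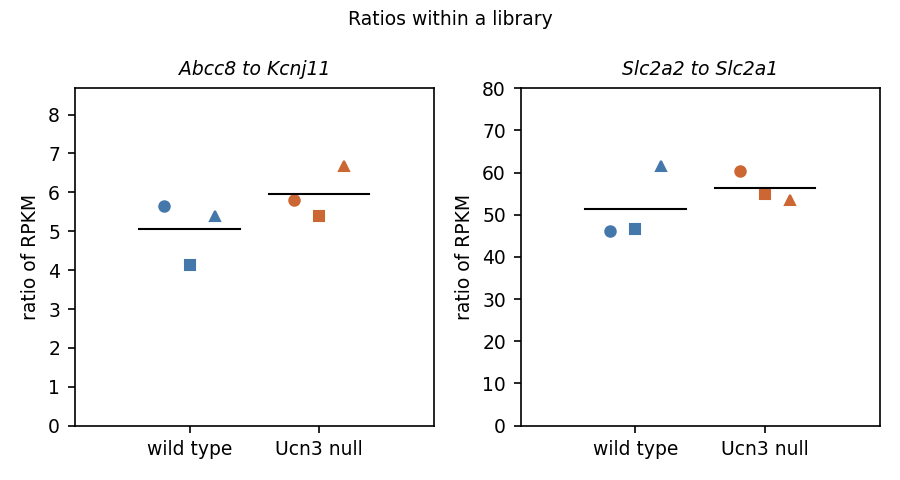
Ratio of RPKM within each library for Abcc8 to Kcnj11 and Slc2a2 to Slc2a1 (blue wild type, orange Ucn3 null; the marker shape gives the replicate number; black line, group mean; axes start at 0). The Abcc8 to Kcnj11 ratio is 4.12 to 5.64 in wild type and 5.40 to 6.69 in null libraries, and in both plots the groups overlap.

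Each gene was also set against the mean log2 level of beta cell markers. The list of 15 beta cell markers includes insulin genes and transcription factors such as Pdx1 and Mafa, and all 15 were tested. It also includes Ucn3, which is deleted in one group and by itself raises every ratio to the list, so Ucn3 was left out for these values, a choice made after seeing the data. Abcc8 was then 0.174 higher in null islets on the log2 scale, with groups that did not overlap (exact two-sided permutation p = 0.1, the smallest possible, adjusted p = 0.4). The other 4 genes had differences from -0.11 to -0.07 relative to the remaining 14 markers, with overlapping groups and exact permutation p from 0.7 to 0.8. With Ucn3 in the list all 5 differences were positive, from 0.282 for G6pc2 to 0.563 for Abcc8.

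Each gene was next set beside relatives of its family. Among glucose and fructose transporters, Slc2a2 was 46 to 61.7 times the level of Slc2a1, the widespread transporter GLUT1, which averaged 3.02 RPKM. Slc2a3, the high-affinity neuronal type, and Slc2a4, the insulin-regulated type of muscle and fat, averaged 0.50 and 0.14 RPKM and were not tested. Slc2a5, the fructose transporter GLUT5, was the highest of the 5 relatives at 40.2 RPKM, and Slc2a2 exceeded it by 3.45 to 4.63 times. Slc2a5 held 37.5, 41.4 and 39.8 RPKM in wild type and 37.0, 42.1 and 43.4 RPKM in null libraries, with overlapping groups.

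G6pc, the liver glucose-6-phosphatase, lay between 0.010 and 0.073 RPKM in the 6 libraries, while the widely expressed G6pc3 averaged 13.9 RPKM. G6pc2 exceeded G6pc3 by 35.7 to 56.7 times. The KATP channel relatives of heart and smooth muscle were low: Abcc9, encoding SUR2, averaged 0.60 RPKM and Kcnj8, encoding Kir6.1, averaged 0.28 RPKM. Abcc8 exceeded Abcc9 by 169 to 318 times and Kcnj11 exceeded Kcnj8 by 69 to 167 times. Kcnj1, a renal potassium channel, was at most 0.014 RPKM and was listed at 0 in wild type replicate 2.

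Trpm5 was the member with a relative of like level. Trpm4, which encodes the closest relative of TRPM5 and is likewise opened by calcium, held 24.0, 25.4 and 24.4 RPKM in wild type and 20.7, 20.1 and 24.0 RPKM in null libraries, and Trpm5 was 0.688 to 1.05 times Trpm4 within a library. Trpm4 had a log2 difference of -0.18 (SE 0.08, limma adjusted p = 0.54) with overlapping groups. Trpm7 averaged 5.62 RPKM. Trpm2, a channel opened by ADP-ribose, averaged 1.07 ± 0.12 RPKM in controls against 1.35 ± 0.03 RPKM in nulls (SD, n = 3 each), with every null library above every wild-type library and a log2 difference of 0.18 (SE 0.09, limma adjusted p = 0.56).

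**Figure D5:**
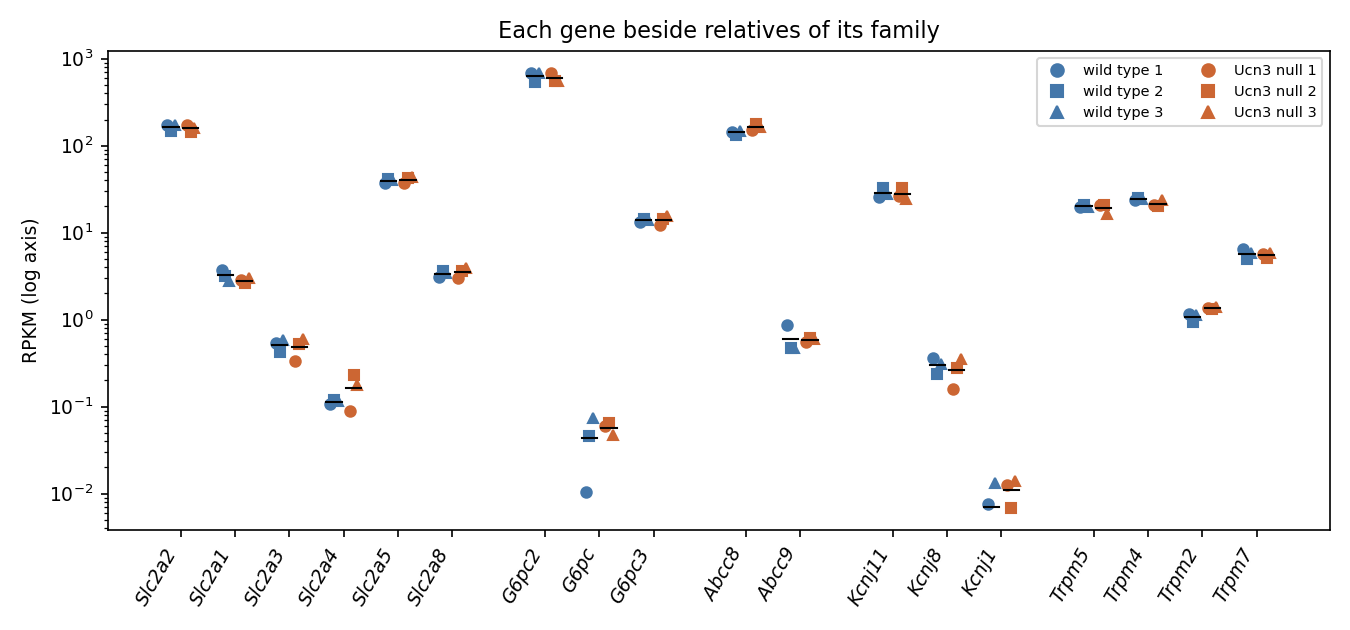
RPKM on a log axis for each of the 5 genes and its family relatives in 6 libraries (blue wild type, orange Ucn3 null; the marker shape gives the replicate number; black line, group mean), where the 1 library of Kcnj1 listed at 0 cannot be drawn. G6pc2, Abcc8 and Kcnj11 stand more than 30 times above each relative, Slc2a2 more than 3 times, and Trpm5 lies level with Trpm4.

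The wider pathway was read from 9 lists with 118 genes, of which 116 were in the table under the names listed and 90 were tested. None passed over all genes. The median log2 difference of the 90 was 0.026, with 55 positive and 35 negative, and 7 had every null library above and 3 every null library below the wild-type libraries, where 1.9% and 13.2% of all genes did. At an unadjusted limma p under 0.05 there were 3 higher and 2 lower genes of 90, beside 1.46% higher and 7.9% lower of all genes. Counts of positive genes below stand beside 38.3% of all genes, a share that depends on the scaling.

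In glucose uptake and phosphorylation, 7 of 11 tested genes were positive and the lowest difference was -0.14 for Slc2a1 (SE 0.10, limma adjusted p = 0.69). In glucose-6-phosphate handling 3 of 6 were positive, and Slc37a2, a phosphate-linked sugar-phosphate exchanger of the endoplasmic reticulum, averaged 13.3 ± 1.69 RPKM in controls and 10.7 ± 0.86 RPKM in nulls (SD, n = 3 each; log2 difference -0.29, limma adjusted p = 0.49). Of 15 mitochondrial coupling genes 6 were positive, with a median of -0.015. Me1, the cytosolic malic enzyme that yields NADPH, stood at 4.47 ± 0.14 and 3.57 ± 0.30 RPKM (SD, n = 3 each; log2 difference -0.26, limma adjusted p = 0.49), and its groups did not overlap. Brp44, the older name of a subunit of the mitochondrial pyruvate carrier, was at 17.7 ± 0.57 and 16.0 ± 0.45 RPKM (SD, n = 3 each), also without overlap. Of the KATP channel relatives and regulators 5 of 9 were positive, and of the TRPM and other depolarizing channels 4 of 7. Itpr3, an inositol trisphosphate receptor, was the 1 tested gene of the 9 taste signalling partners of Trpm5, at 7.15 ± 0.16 and 7.67 ± 0.05 RPKM (SD, n = 3 each).

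Of the channels that carry the depolarization further, 10 of 15 were positive, with a median of 0.072. Cacna1d, the L-type calcium channel Cav1.3, held 17.6, 12.2 and 16.2 RPKM in wild type and 18.04, 17.3 and 19.4 RPKM in null libraries. Cacna1a, the P/Q-type channel, held 15.9, 9.71 and 14.3 RPKM in wild type and 15.9, 16.0 and 17.9 RPKM in null libraries. For both, wild type replicate 2 lay apart below the other libraries, as it did for Abcc8 by a smaller margin.

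Among 14 transcription factors known to act on these genes or on beta cell identity, 10 were positive. Nkx6-1 stood at 58.0 ± 2.97 and 70.5 ± 6.10 RPKM (SD, n = 3 each; log2 difference 0.27, limma adjusted p = 0.49) without overlap. Of 12 tested genes for receptors and cyclic AMP signals that act on the KATP channel, 9 were positive. Glp1r, the receptor of the incretin GLP-1, held 93.6, 75.2 and 98.1 RPKM in wild type and 101, 132 and 118 RPKM in null libraries (log2 difference 0.39, limma adjusted p = 0.49).

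The genes most like each member were taken by Pearson r of log2(RPKM + 1) over the 6 libraries, among 4191 other genes of at least 10 RPKM, as a description of these animals. Abcc8 was nearest to Glp1r (r = 0.992), followed by Pcdhgb1 and Ubr4 (0.982 and 0.978). Each of these genes, like Abcc8, had every null library above every wild-type library, so these r values include the difference between the genotypes. G6pc2 was nearest to Ccnd2, which encodes a cyclin of beta cell division (r = 0.997), then to Hist1h4k and Fhit (0.969 and 0.953). Ccnd2 held 66.5, 56.2 and 66.8 RPKM in wild type and 66.9, 57.9 and 56.3 RPKM in null libraries. These are the same 2 sets of libraries as for G6pc2, so that r may reflect little beyond the split. Slc2a2 was nearest to Sdccag8, Lysmd2 and Cdh8 (0.991, 0.989 and 0.987), and Trpm5 to Tapbp, Map1lc3a and Nell1 (0.969, 0.962 and 0.961). Kcnj11 had no gene above 0.95, and its nearest were Gpd2, the mitochondrial glycerol phosphate dehydrogenase, Scd2 and Mir5114 (0.906, 0.904 and 0.897). Above 0.95 there were 13 genes for Abcc8, 6 for Slc2a2, 5 for G6pc2 and 3 for Trpm5. The libraries share depth and scaling across all these genes.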

How the data were processed

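RNA of isolated islets from 3 Ucn3 null and 3 wild-type mice was measured with Illumina TruSeq RNA v2 libraries, per the labels' protocols. The authors deposited RPKM values, 1 row per RefSeq transcript, per the file headers. The submitters' processing notes name STAR, bedtools, DESeq and the build mm9, without roles. How shared reads and strand were counted is not stated in the sources used here. Of 28129 rows, 117 held no values and 1 held text, leaving 28011.

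Of several transcripts per symbol, that of highest mean RPKM was kept, and genes averaging at least 1 RPKM were tested. Values as log2(RPKM + 1) were fitted with limma 3.58.1 in R 4.3.3, genotype as the only term, eBayes with a mean trend and Benjamini-Hochberg adjustment over 12652 genes at a threshold of 0.05. The scale understates changes of low genes. Ratios used exact permutation tests (scipy 1.17.1), adjusted over 8 ratios, of which 1 is not reported here. Depths came from the steps between low values and GENCODE M21 lengths, matched for 97.5% of rows, and whole reads within 0.1 came out for 68.2% to 68.9% of low values, too few for a count test. Reads are therefore estimates. Promoters were matched for 3 of the 5 genes.

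The members and lists were chosen with earlier results of these data known, and the E-box was added after the other motifs had been searched. Named were the 5 genes, their relatives, up to 3 genes per list with the smallest p and the 3 genes most like each member. Tssc4 was added after the annotation was read. Animals are littermates, but no label pairs them. Alternatives were another pseudocount, 2 filters, 2 scalings, no mean trend, the mean over transcripts, an acinar covariate and leaving out each library.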

Additional observations from a re-analysis of the deposited data

How the results depend on the processing

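None of the 5 genes passed in any of the 14 alternatives run for each (lowest limma adjusted p = 0.439), and Abcc8 kept its direction in all of them. The other 4 differences lay near 0 in the main fit, and each changed sign in some setting, G6pc2 in 1 only. With median-ratio scaling Slc2a2 was at 0.003 and Kcnj11 at 0.005. With equal totals without the acinar list Slc2a2 was at 0.033, G6pc2 at 0.002, Kcnj11 at 0.035 and Trpm5 at 0.016. With the acinar covariate, which is partly confounded with genotype, Kcnj11 was at 0.053, Slc2a2 at -0.178 and Trpm5 at -0.13. G6pc2 moved farthest from 0 there, to -0.363 (limma unadjusted p = 0.0305, adjusted p = 0.98). With 1 library left out Slc2a2 ranged from -0.115 to 0.016, G6pc2 from -0.187 to -0.016, Kcnj11 from -0.164 to 0.047 and Trpm5 from -0.12 to 0.045. The count of genes called, 2, was 4 with no filter on low values, 1 with a filter at a mean of 5 RPKM, 1 with the acinar covariate, and from 1 to 5 with 1 library left out (5 without Ucn3 null replicate 1, 1 without Ucn3 null replicate 2). With Ucn3 left out of the beta cell markers, an alternative added after seeing the data, the ratios to that list were -0.075 for Slc2a2, -0.107 for G6pc2, -0.072 for Kcnj11 and -0.090 for Trpm5. The cause of the other shifts was not tested; leaving out Ucn3 removes its own loss from the list by construction. No paired analysis was possible because the labels do not state which animals of the 2 genotypes belong together. The number of animals limits the precision.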

Other observations

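Wild type replicate 2 was the lowest of the 6 libraries for Abcc8 (133 RPKM), Glp1r (75.2 RPKM), Cacna1a (9.71 RPKM), Cacna1d (12.2 RPKM), Scn8a, a sodium channel (2.24 RPKM), and Abcc10, a transporter of the family of SUR1 (3.12 RPKM). It was also the lowest for the acinar marker mean, at 3.77 on the log2(RPKM + 1) scale beside 5.50 and 6.64 in the other wild-type libraries and 6.37 to 8.37 in null libraries. In the same library Kcnj11 (32.3 RPKM) and Trpm5 (21.0 RPKM) were the highest of the wild-type values. Without it the Abcc8 difference was 0.155 (limma adjusted p = 0.94) in place of 0.20 (adjusted p = 0.55). Its part in the other differences was not tested.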
